A study of Mus musculus with 12 samples.

Results

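Nuclear genes of oxidative phosphorylation (OXPHOS) were followed in bone marrow of C57BL/6 mice, a common inbred laboratory strain, after traumatic brain injury (TBI). The genes were chosen by symbol, as the subunit families Nduf, Sdh, Uqcr, Cox and Atp5, and by level: a row had to reach 1 FPKM in 3 or more of the 12 samples. FPKM counts fragments per kilobase of a transcript after scaling each sample to its total, and the rule used no difference between groups. Of 80 rows with such symbols 75 met the level, among 11767 genes that met it in a table of 24421 rows. They comprised 35 genes of complex I, 4 of complex II, 8 of complex III, 13 of complex IV and 15 of complex V. The complex of each gene follows its symbol alone, so Ndufa4, now known as a subunit of complex IV, is counted in complex I.

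Oxidative phosphorylation takes place in the inner mitochondrial membrane. Complexes I (NADH dehydrogenase) and II (succinate dehydrogenase) feed electrons into ubiquinone, complex III passes them to cytochrome c, and complex IV (cytochrome c oxidase) passes them to oxygen. Complexes I, III and IV pump protons, and complex V (ATP synthase) uses the gradient to make ATP. Most subunits are encoded in the nucleus and a small core by the mitochondrial genome, and in marrow the demand for this pathway is known to differ between resting stem cells, dividing progenitors, red cell precursors and neutrophils. The table held no symbol of the mitochondrial genome (0 rows starting with mt-), so only nuclear subunits are described.

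Each of 4 groups had 3 samples. Controls were young (labelled Young-CON) or aged (Aged-CON), and injured mice were likewise young (Young-TBI) or aged (Aged-TBI). Marrow was taken 3 days after injury. The labels name no transgene, drug or sham operation for any group and give no ages, sexes or numbers of animals. Nor do they say that each sample is its own animal, and p-values therefore measure a spread among samples that may be technical. The steps between low FPKM values gave 12.3 to 15.9 M fragments per sample, and marrow markers of neutrophils, B cells and red cell precursors were detected in all samples. In bulk RNA, fewer cells of a type and less RNA per cell cannot be told apart.

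One library stood apart from its group in these genes. The mean of log2(FPKM + 1) over the 75 genes was 6.26, 6.18 and 6.23 in Young-CON 1 to 3, and 6.33, 6.38 and 6.31 in the Young-TBI samples. It was 6.34, 6.14 and 6.18 in Aged-CON and 6.30, 6.35 and 6.34 in Aged-TBI. The young groups therefore did not overlap, while Aged-CON 1 lay among the injured samples. The same library stood apart in 15 genes of red cell precursors, whose mean was 7.50 in Aged-CON 1 against 6.65 and 6.58 in Aged-CON 2 and 3 and 7.66 to 7.78 in Aged-TBI. Summed over the list, erythroid genes held 1719 to 3611 FPKM in young controls and 1973 to 2788 FPKM in young injured mice. In aged mice the sums were 2077 to 3985 FPKM without and 4526 to 4796 FPKM with injury, and none of the 15 was at 0. Young-CON 2 stood apart in the erythroid list too, with a mean of 6.32 against 7.32 and 7.14 in Young-CON 1 and 3. Its sum of 1719 FPKM was the lowest in young controls, and it was also the lowest Young-CON sample in the OXPHOS mean. A fit with the erythroid mean as a covariate is given below. The part of red cell precursors in the differences was not otherwise tested.

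**Figure D1:**
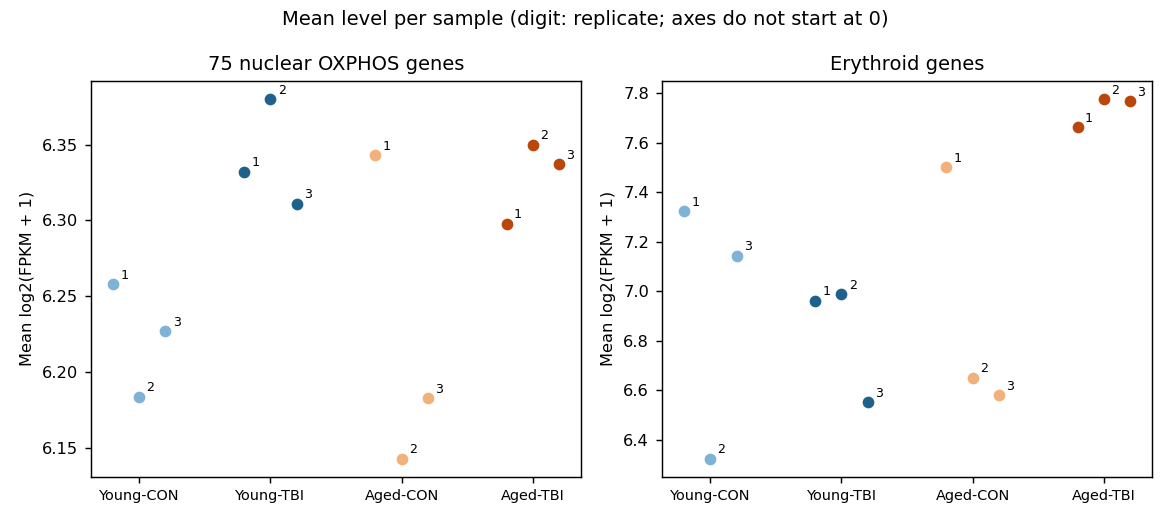
Mean of log2(FPKM + 1) per sample over the 75 nuclear OXPHOS genes (left) and over 15 erythroid genes (right), by group; each point is 1 sample and the digit is its replicate number. All 3 Young-TBI samples (6.31 to 6.38) lie above the Young-CON samples (6.18 to 6.26), and Aged-CON 1 lies at 6.34 on the left and 7.50 on the right, near the Aged-TBI samples.

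Median levels were higher from each complex to the next, from complex I to complex V. The median of the genes' mean FPKM over 12 samples was 53.4 for complex I, 68.4 for complex II, 96.4 for complex III, 127 for complex IV and 133 for complex V, and 81.1 over all 75 genes. The catalytic beta subunit of ATP synthase, Atp5b, had the highest level at 389 FPKM, which placed it at rank 153 of the whole table. Cox6a1 of complex IV followed at rank 212 (268 FPKM) and Atp5a1, the alpha subunit, at rank 227. The highest gene of complex I was Ndufa4 at 189 FPKM, which was first named as a subunit of complex I and is now known as one of complex IV. Uqcrh, the hinge protein beside cytochrome c1, led complex III at 176 FPKM, and the flavoprotein gene Sdha led complex II at 79.0 FPKM.

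Complex II was the most even, with 58.5 FPKM for Sdhc to 79.0 for Sdha, a ratio of 1.35. Complex I ran from 13.3 FPKM (Ndufa11) to 189, a ratio of 14.3, and complex V from 75.2 (Atp5g1) to 389, a ratio of 5.17. The upper end of complex I is Ndufa4, placed there by its symbol, while Ndufb7 of complex I was at 127.6 to 154.5 FPKM per sample. Ndufa11 had 421 to 613 recovered fragments per sample, against 309 to 484 for Ndufa12, which was at 42.0 to 55.1 FPKM. The low FPKM of Ndufa11 and the ratio of 14.3 thus depend on the gene length used for FPKM, and not on few fragments. Complex IV had the widest range, from 1.35 FPKM for Cox7a1 to 268 for Cox6a1. In all, 55 genes had a mean of at least 50 FPKM and 28 of at least 100 FPKM. Together the 75 genes held 1.50% ± 0.0562 (SD, n = 3) of the FPKM sum in young controls and 1.59% ± 0.0344 (SD, n = 3) in young injured mice. The shares were 1.45% ± 0.146 (SD, n = 3) in aged controls and 1.61% ± 0.0184 (SD, n = 3) in aged injured mice. The median SD within groups was 0.0865 on the log2 scale for these genes, against 0.111 for 2127 other genes of like level (33.5 to 189 FPKM) and 0.131 for all tested genes.

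**Figure D2:**
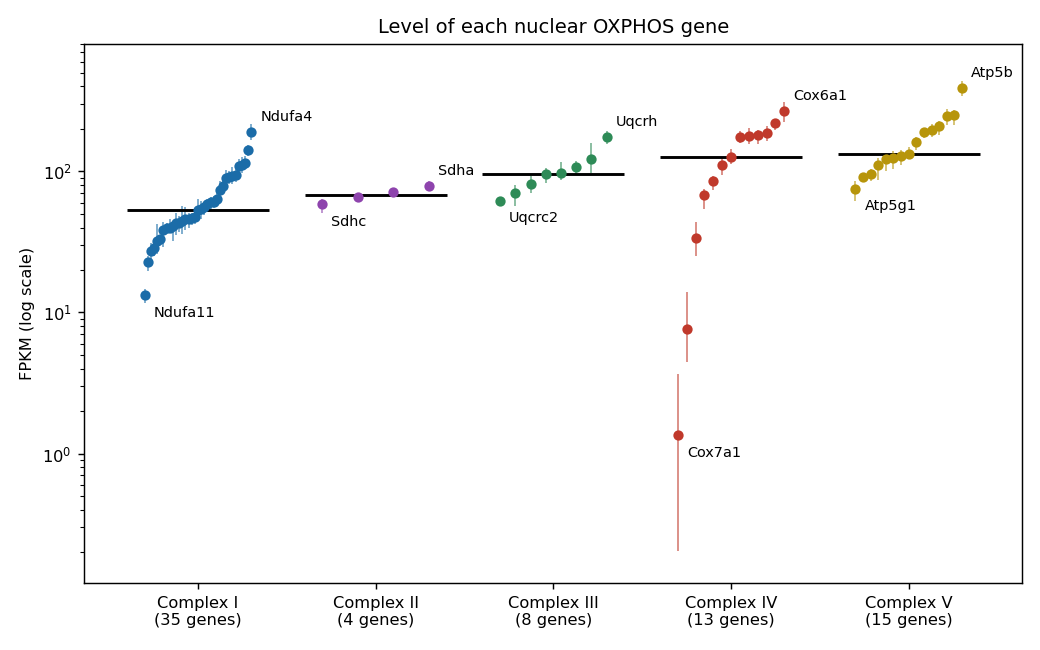
Mean FPKM over 12 samples of each of the 75 genes, by complex, on a log axis; vertical lines run from the lowest to the highest sample and horizontal bars are medians. The medians climb from 53.4 FPKM in complex I to 133 FPKM in complex V, and Cox7a1 lies far below the rest at 1.35 FPKM.

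Where a subunit has a tissue-restricted form, marrow held mainly the widespread one. Cox6a1 was at 268 FPKM and its heart and muscle form Cox6a2 at 4.45 to 13.9 FPKM. Cox7a2 ran from 73.6 to 93.4 FPKM, and its muscle form Cox7a1 from 0.203 to 3.68 FPKM, which is 1 to 19 fragments per sample. Cox8a ran from 195 to 236 FPKM, while the muscle form Cox8b was listed at 0 in all but 2 samples and did not meet the rule. The testis form Cox6b2 was an exception to this size of gap, at 25.3 to 44.1 FPKM against 158 to 194 FPKM for Cox6b1. Ndufa4l2, the hypoxia-linked relative of Ndufa4, reached at most 0.272 FPKM and fell outside the rule. Cox7a1 lay just inside the level rule, with a third-highest sample of 1.65 FPKM, and Cox6a2 was the next lowest, at 7.79 FPKM by the same measure. Of 5 skeletal muscle markers, Myh4 was at 0 in all samples, Acta1 and Ckm reached 0.816 and 0.169 FPKM, Tnnt3 was at 0.86 to 2.34 FPKM and Mylpf at 6.91 to 11.5 FPKM.

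The other rows outside the rule were Ndufs5, Cox8c and Cox7b2, each listed at 0 in every sample. Ndufs5 encodes an accessory subunit that complex I is known to need, and 21.7% of the 50-base stretches of its transcripts also occur in the processed pseudogene BC002163. A listed 0 can be a failed estimate, and no statement on Ndufs5 expression is made. The 3 genes of the ATP synthase c ring, Atp5g1, Atp5g2 and Atp5g3, encode the same mature protein and had mean levels from 75.2 FPKM for Atp5g1, over 104 to 140 FPKM per sample for Atp5g2, to 180 to 229 FPKM per sample for Atp5g3. Cox5a and Cox5b, separate subunits of complex IV, ran from 113 to 143 and from 165 to 210 FPKM.

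The first comparison set injured against control young marrow. Most OXPHOS genes were slightly higher after injury, and 1 passed the test. Ndufb3, an accessory subunit of the membrane arm of complex I (GRCm38 chromosome 1, 58586384 to 58595964), was at 76.2, 80.5 and 82.5 FPKM in Young-CON and at 98.1, 99.1 and 92.6 FPKM in Young-TBI. The groups did not overlap, and Ndufb3 rose by a log2 change of 0.27 (SE 0.06, limma adjusted p = 0.024). Its call was lost without any 1 of the 6 young samples, with adjusted p between 0.0603 and 0.101. In aged mice Ndufb3 was at 89.2, 84.8 and 86.9 FPKM without and 95.4, 91.6 and 102 FPKM with injury, again with no overlap, and did not pass (log2 change 0.15, adjusted p = 0.174).

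None of the 75 fell. Over all 11767 genes limma called 5.15% in this comparison (adjusted p under 0.05, either direction), so 1 of 75 is not above the background. Most differences were small and of the same sign: 68 of the 75 log2 changes were above 0, against 44.5% of all genes, and their median was 0.12 against -0.02 for all genes. The cytosolic ribosome and proteasome lists, given further below, were also mostly above 0 at both ages. At an unadjusted p under 0.05 the counts were 26 higher against 1 lower, where 20.1% of all genes passed in either direction. In 39 of the 75 all Young-TBI samples lay above all Young-CON samples, which held for 12.9% of all genes, and in 0 all lay below, which held for 15%. Without Young-CON 2 the first count was 42 of 75, with 18.7% of all genes. Aged-CON 1 is outside this comparison but enters the shared estimate of the spread, and without it 8 genes were called, all higher, with 8.24% of all genes.

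Summed FPKM of complex I was 2127, 2095 and 2106 in Young-CON and 2300.0, 2367 and 2290.0 in Young-TBI. Of complex V it was 2468, 2301 and 2451 and then 2585, 2664 and 2601, and of complex II 279, 265 and 272 and then 280, 289 and 283. In each of these complexes the injured samples lay above the controls. Of the complex I genes 32 of 35 were above 0 with a median log2 change of 0.12, and 19 did not overlap. Complex III had 6 of 8 above 0 (median 0.09, 4 not overlapping), complex IV 12 of 13 (median 0.13, 6 not overlapping) and complex V 15 of 15 (median 0.13, 9 not overlapping). In complex II 3 of 4 were above 0, with a median of 0.07 and 1 gene not overlapping. Atp5j, coupling factor 6 in the peripheral stalk of ATP synthase, was at 87.3, 88.2 and 85.4 FPKM in Young-CON and at 97.6, 104.5 and 102.4 FPKM in Young-TBI. These groups did not overlap, but Atp5j missed the threshold (log2 change 0.22, SE 0.06, limma adjusted p = 0.0517). Its exons overlap those of Gabpa on the opposite strand, and whether counting used strand is not given in the sources used here.

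Of the genes just short of the threshold, chosen after their values were seen, Ndufs6, an accessory subunit near the iron-sulphur clusters of complex I, was at 56.1, 55.3 and 54.7 FPKM in Young-CON and at 61.5, 67.4 and 67.0 FPKM in Young-TBI (log2 change 0.23, SE 0.06, adjusted p = 0.0508). Ndufa1, encoded on the X chromosome and needed for assembly of complex I, was at 58.0, 57.6 and 57.5 and then at 65.9, 68.5 and 72.5 FPKM (0.25, SE 0.07, adjusted p = 0.0528). Neither had overlapping groups, and the exons of Ndufs6 overlap those of Mrpl36 on the opposite strand.

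The smallest p in the other complexes belonged to Cox5a, Uqcrb and Sdhd. Cox5a, a matrix-facing subunit of complex IV, was at 120.2, 113 and 123 FPKM in Young-CON and at 132, 143 and 136 FPKM in Young-TBI (log2 change 0.21, SE 0.06, adjusted p = 0.083). Uqcrb, the ubiquinone-binding subunit of complex III, was at 92.0, 90.1 and 87.3 FPKM and then at 108, 101 and 111 FPKM (0.25, SE 0.09, adjusted p = 0.15). Both had no overlap between the groups, and 25.5% of the 50-base stretches of Uqcrb occur in other genes. Sdhd, a membrane anchor of complex II, was at 73.9, 66.1 and 68.8 FPKM in Young-CON and at 75.8, 74.4 and 74.4 FPKM in Young-TBI (0.11, SE 0.07, adjusted p = 0.433), also without overlap. The 1 gene lower at an unadjusted p was Cox6a2, at 13.9, 7.38 and 9.95 FPKM in Young-CON and 6.97, 7.75 and 5.95 FPKM in Young-TBI (-0.50, SE 0.20, adjusted p = 0.198). Its groups overlapped through Young-CON 2, and its exons overlap those of Itgad on the opposite strand.

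Marker lists of cell types moved in the same samples. Of 8 genes of the neutrophil primary granule 6 rose, with a median log2 change of 0.85 and a summed level of 2154 to 2432 FPKM in Young-CON against 3505 to 4429 FPKM in Young-TBI. The other neutrophil lists had 0 called: 5 of 7 secondary granule genes were above 0 (median 0.16), and 2 of 8 mature neutrophil genes (median -0.19). Of 8 B cell genes 7 fell (median -1.10, summed level 561 to 790 FPKM against 254 to 365 FPKM). None of 18 cell cycle genes passed in limma, with 2 higher at an unadjusted p under 0.05, but all 18 were above 0 (median 0.16, summed level 1620 to 2078 FPKM against 1943 to 2188 FPKM). Erythroid genes had a median of -0.06, and 1 of 15 was above 0. Of the smaller lists, the 6 genes of T and natural killer cells had 4 called lower and 1 called higher (median -0.57), and 3 of 4 basophil and mast cell genes fell (median -0.71, summed level 110 to 132 FPKM against 67.8 to 80.3 FPKM). All 6 megakaryocyte and platelet genes were higher without overlap (median 0.79, summed level 160 to 174 FPKM against 249 to 415 FPKM), with 0 called by limma and 3 higher by unadjusted p under 0.05. Of 6 monocyte genes 1 rose (median 0.33). The part of these cells in the OXPHOS difference was not tested.

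**Figure D3:**
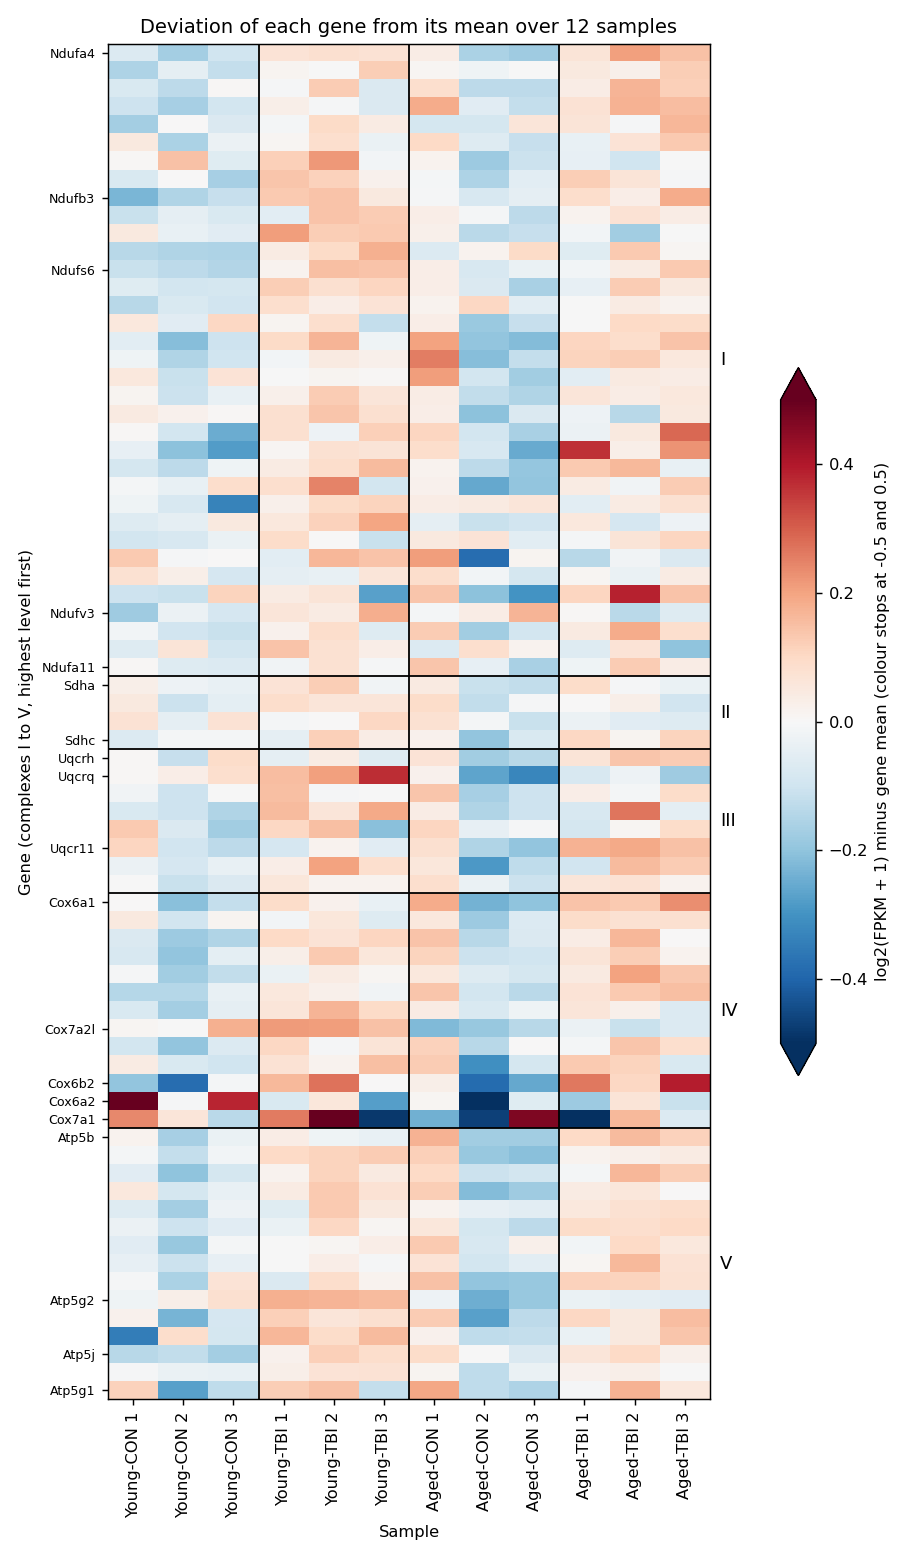
Deviation of log2(FPKM + 1) from each gene's mean over 12 samples (colour), for the 75 genes in rows by complex (some named) and the 12 samples in columns by group. Young-CON columns are mostly blue and Young-TBI columns mostly red, and among the Aged-CON columns replicate 1 is red for most genes while replicates 2 and 3 are blue.

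The same comparison in aged marrow gave no call among the 75 genes. In limma 0 passed and in voom on recovered fragments 0 passed, while at an unadjusted p under 0.05 limma had 12 higher against 0 lower. Of all genes 0.323% were called in this comparison and 23.9% had an unadjusted p under 0.05. As in young mice most changes were above 0, with 66 of 75 genes, against 45.2% of all genes, and a median log2 change of 0.11 against -0.02. In 11 genes all Aged-TBI samples lay above all Aged-CON samples, where 9.19% of all genes did so, and in 0 all lay below, where 13% did.

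The counts of calls and of genes without overlap rested on Aged-CON 1. Without it 31 of the 75 genes were called, all higher, where 27.8% of all genes were called, and 56 of 75 had no overlap and were higher, where 27.9% of all genes were. Without Aged-TBI 1 the second count was 23, and without the other samples 11 to 16. Leaving out Aged-CON 1 leaves 2 samples in that group. With the erythroid mean as a covariate the median log2 change was 0.0087, and 42 of 75 genes were above 0. That mean was 6.58 to 7.50 in Aged-CON and 7.66 to 7.78 in Aged-TBI, without overlap, so this fit cannot tell injury apart from it. Under the other 24 alternatives 60 to 69 genes were above 0. Of the 15 erythroid genes all 15 had higher values in every Aged-TBI than in every Aged-CON sample (median 0.83), none was called by limma and 14 passed at an unadjusted p under 0.05.

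Other marker lists differed in the same aged samples. All 18 cell cycle genes were above 0 (median 0.36), with 0 called by limma and 16 higher by unadjusted p under 0.05. Their summed level was 2267 FPKM in Aged-CON 1, 1636 and 1591 FPKM in Aged-CON 2 and 3, and 2328 to 2451 FPKM in Aged-TBI, so Aged-CON 1 lay near the injured samples here too. All 8 mature neutrophil genes were below 0 (median -0.41), of which 1 fell and 7 were lower by unadjusted p under 0.05. Their summed level was 44620 FPKM in Aged-CON 1, 65290 and 66680 FPKM in the other controls, and 46100 to 47870 FPKM in Aged-TBI. All 8 B cell genes were below 0 (median -0.46, summed level 129 to 179 FPKM against 109 to 126 FPKM), with 0 called by limma and 6 lower by unadjusted p. The part of these cells in the OXPHOS values was not tested.

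Cox6b2, the testis form noted above (chromosome 7, 4751792 to 4753094), had the smallest p in aged marrow. It was at 34.1, 25.3 and 27.7 FPKM in Aged-CON and at 40.2, 35.9 and 44.1 FPKM in Aged-TBI, with no overlap (log2 change 0.46, SE 0.13, limma adjusted p = 0.11). The young groups did not overlap either, at 28.9, 25.3 and 33.1 against 37.4, 40.4 and 33.4 FPKM (0.34, SE 0.13, adjusted p = 0.155). No 50-base stretch of its transcripts occurs in another gene.

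Ndufa4 was at 194, 169 and 167 FPKM in Aged-CON and at 198, 218 and 209 FPKM in Aged-TBI (log2 change 0.24, SE 0.07, adjusted p = 0.111), with Aged-CON 1 next to the lowest injured sample. In young mice it was at 180.0, 168 and 176 FPKM against 198, 199 and 199 FPKM (0.19, adjusted p = 0.154), so both ages had no overlap. Uqcr11, a small subunit of complex III, was at 85.5, 72.7 and 70.2 FPKM in Aged-CON and at 91.2, 92.3 and 89.6 FPKM in Aged-TBI (0.26, SE 0.08, adjusted p = 0.125). Its young groups overlapped, at 87.0, 75.6 and 73.7 against 76.2, 81.9 and 77.5 FPKM (-0.00, adjusted p = 0.998). Sdhc and Atp5j2, a membrane anchor of complex II and the f subunit of ATP synthase, had log2 changes of 0.16 (adjusted p = 0.188) and 0.14 (adjusted p = 0.191).

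By complex the aged medians were 0.08 for complex I (30 of 35 above 0), 0.04 for complex II (2 of 4), 0.11 for complex III (7 of 8), 0.14 for complex IV (12 of 13) and 0.12 for complex V (15 of 15). Some core subunits of complex I were then set side by side by role, chosen after their values were seen. Ndufv1, Ndufv2 and Ndufs1, which bind NADH and the first iron-sulphur clusters, had log2 changes of 0.20, 0.18 and 0.09 in young and 0.18, 0.19 and 0.15 in aged mice. Ndufs3, Ndufs7 and Ndufs8, which lie on the way to ubiquinone, had 0.07, -0.04 and 0.08 in young and 0.19, 0.15 and 0.04 in aged mice. None of these 6 passed in limma at either age.

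**Figure D4:**
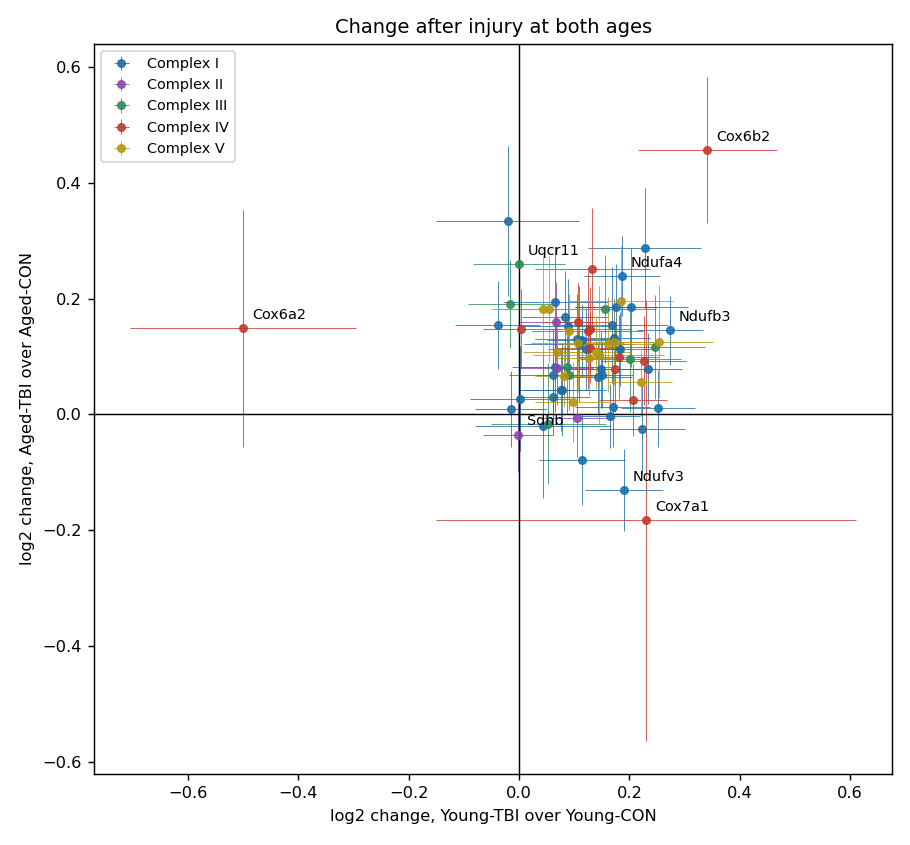
Log2 change after injury in young mice (x axis) against aged mice (y axis) for each of the 75 genes, coloured by complex, with bars of 1 SE. Most genes lie above 0 on both axes, Ndufb3 at 0.27 and 0.15, and Cox6a2 stands apart at -0.50 in young mice; the axes share no samples.

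Genes on either side of 0 at both ages were counted. There were 60 genes above 0 at both ages and 1, Sdhb, below 0 at both. A further 8 were above 0 in young and below in aged mice, and 6 the other way round, among them Uqcr11, Uqcrh and Ndufa5. The difference between the ages was tested by the interaction of age and injury. It called 0 of the 75 genes in limma and 0 in voom, with 2 higher against 3 lower by unadjusted p under 0.05, where 0.195% of all genes were called and 20% had such a p. The median difference was -0.01 (all genes 0.02). Without Aged-CON 1 it was 0.07 with 4 calls, not set against the share of all genes in that fit, and without Young-CON 2 it was 0.01.

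The smallest interaction p was that of Ndufv3, an accessory subunit at the NADH-binding end of complex I. It was at 25.0, 27.8 and 26.8 FPKM in Young-CON, 29.7, 29.3 and 32.3 in Young-TBI, 28.2, 29.2 and 32.1 in Aged-CON and 28.6, 25.8 and 27.1 FPKM in Aged-TBI. Young injured samples were above their controls and aged injured samples mostly below theirs, a difference of -0.32 (SE 0.10, limma adjusted p = 0.139). Cox6a2 (0.65, SE 0.29, adjusted p = 0.242) and Uqcr11 (0.26, SE 0.12, adjusted p = 0.246) had the smallest p in complexes IV and III, Atp5j in complex V (-0.16, SE 0.08, adjusted p = 0.282) and Sdhd in complex II (-0.11, SE 0.10, adjusted p = 0.54).

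Regulatory sequence was read at the starts of these genes, since most had log2 changes above 0 after injury at both ages, although 1 passed the test. Nuclear OXPHOS genes are known targets of nuclear respiratory factor 1 (NRF1), of the ETS factor GABP, of YY1 and of SP1. Windows of 250 bases before to 50 after each start were taken from RefSeq (GRCm38.p6), where 63 of the 75 genes matched with 68 windows, and searched on both strands for fixed letters. The NRF1 letters GCGCATGCG occurred in 8 of 68 windows (11.8%, against 1.8% of all 32851 windows), and the YY1 letters AAGATGGCG in 7 (10.3%, against 1.4%). The ETS letters CCGGAAGT occurred in 5 (7.4%, against 3.9%) and the SP1 letters GGGCGG in 26 (38.2%, against 35.7%). No searched pair of letter strings is contained in the other, but matches could overlap. All 32851 windows were counted whether or not their gene met the level rule, which the 75 genes had met. A match is a description of letters and not of binding. The windows of 3 genes described here are shown, each on the minus strand and written from 5′ to 3′, with matches in capitals: Uqcr11 (chr10:80406772-80407071) with NRF1 and ETS letters, Atp5j at its second listed start (chr16:84834927-84835226) with YY1 letters, and Atp5g2 (chr15:102670998-102671297) with NRF1 and SP1 letters.
Uqcr11: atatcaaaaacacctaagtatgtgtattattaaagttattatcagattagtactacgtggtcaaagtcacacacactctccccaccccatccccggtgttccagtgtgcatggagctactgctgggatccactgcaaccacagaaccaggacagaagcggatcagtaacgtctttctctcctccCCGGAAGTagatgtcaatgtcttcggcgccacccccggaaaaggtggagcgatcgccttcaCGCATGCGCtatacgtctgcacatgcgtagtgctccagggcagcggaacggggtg
Atp5j: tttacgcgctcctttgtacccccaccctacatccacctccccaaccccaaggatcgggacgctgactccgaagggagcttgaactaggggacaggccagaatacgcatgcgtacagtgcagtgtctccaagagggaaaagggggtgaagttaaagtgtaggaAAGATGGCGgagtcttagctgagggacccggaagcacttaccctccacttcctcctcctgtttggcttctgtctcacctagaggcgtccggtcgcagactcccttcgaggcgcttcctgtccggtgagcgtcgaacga
Atp5g2: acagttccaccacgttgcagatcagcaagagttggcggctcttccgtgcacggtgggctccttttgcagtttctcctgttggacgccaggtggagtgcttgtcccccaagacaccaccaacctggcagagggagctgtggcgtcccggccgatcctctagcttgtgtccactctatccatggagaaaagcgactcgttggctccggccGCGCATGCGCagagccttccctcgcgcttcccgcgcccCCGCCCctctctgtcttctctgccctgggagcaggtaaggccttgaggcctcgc
In Ndufb3, the gene called after injury in young mice, none of the 4 letter strings occurred in the window.

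Age was compared without injury, Aged-CON against Young-CON, which shares its control samples with the injury comparisons. Here 1 gene fell. Cox7a2l, a relative of Cox7a2 known as a factor that joins complexes III and IV into supercomplexes (chromosome 17, 83501918 to 83517330), was at 110.4, 109.5 and 124 FPKM in Young-CON and at 93.9, 95.8 and 99.5 FPKM in Aged-CON. The groups did not overlap, and the log2 change was -0.24 (SE 0.06, limma adjusted p = 0.0421). C57BL/6 mice are known to carry a shortened form of this gene. Of its 50-base stretches 13.8% occur in the processed pseudogene Gm6969. The call was kept under 10 of 25 alternatives and lost under 15, with adjusted p up to 0.232 (0.167 under median ratio scaling, 0.128 without Aged-CON 2 and 0.206 without Young-CON 3).

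None of the 75 rose, and 4.98% of all genes were called. By unadjusted p under 0.05 the counts were 5 higher against 4 lower, where 19.2% of all genes passed. The values of 44 of the 75 were above 0, against 37.0% of all genes, with a median of 0.01 against -0.05. In 8 genes all Aged-CON samples were higher (4.78% of all genes) and in 2 all were lower (15.6%). The sign of the median depended on single libraries: it was -0.06 without Aged-CON 1 and -0.01 without Young-CON 2, and without Aged-CON 1 the calls were 3 lower and 0 higher. These last counts are not set beside the share of all genes called in the same fit.

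The smallest p in the other complexes were those of Ndufa13, Uqcrq, Atp5g2 and Sdha. Ndufa13, also known as the cell death factor GRIM-19, was at 40.1, 38.5 and 32.0 FPKM in Young-CON and at 41.7, 42.0 and 42.4 FPKM in Aged-CON (log2 change 0.19, SE 0.08, adjusted p = 0.21), without overlap. Of its 50-base stretches 28.5% occur in other genes. Sdha had -0.05 (SE 0.07, adjusted p = 0.718). Of the 8 B cell genes all 8 fell with age (median -1.95, summed level 561 to 790 FPKM in Young-CON against 129 to 179 FPKM in Aged-CON), and 5 of 8 primary granule genes rose (median 0.50). Of 8 mature neutrophil genes 1 rose (median 0.38), as did 1 of 4 basophil and mast cell genes (median 0.45), and the part of these cells in the OXPHOS values was not tested.

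After injury, Aged-TBI against Young-TBI, 2 of the 75 genes were lower in aged mice and none was higher. Cox7a2l was at 127, 127 and 122 FPKM in Young-TBI and at 107, 102 and 105 FPKM in Aged-TBI, without overlap, and fell by 0.26 on the log2 scale (SE 0.06, limma adjusted p = 0.0254). The 6 aged samples thus all lay below the 6 young ones, 93.9 to 107 against 109.5 to 127 FPKM. Under the alternatives this call was kept 17 times and lost 8 times, with adjusted p up to 0.0937 (0.075 under median ratio scaling). It was lost without each 1 of the 6 injured samples.

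Uqcrq, a small ubiquinone-binding subunit of complex III (chromosome 11, 53427922 to 53430831), was at 136, 141 and 158 FPKM in Young-TBI and at 115.5, 120.0 and 108 FPKM in Aged-TBI. The groups did not overlap, and Uqcrq fell by 0.34 on the log2 scale (SE 0.09, limma adjusted p = 0.04). This call was kept under 13 alternatives and lost under 12, with adjusted p up to 0.164 without Young-TBI 3. In controls it was at 123, 125 and 129.5 FPKM in Young-CON and 124, 102 and 97.3 FPKM in Aged-CON, which overlapped through Aged-CON 1 (-0.23, SE 0.09, adjusted p = 0.195). No 50-base stretch of its transcripts occurs in another gene.

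Atp5g2, whose promoter window is shown above, was next, at 139.7, 139 and 138 FPKM in Young-TBI and 120.5, 119.7 and 119 FPKM in Aged-TBI (log2 change -0.21, SE 0.06, adjusted p = 0.0525). Its control groups were at 122, 126 and 130.5 against 121, 104 and 108 FPKM (-0.18, adjusted p = 0.138), and 38.3% of its 50-base stretches occur in other genes. The other c ring genes had smaller values after injury, with 0.02 for Atp5g1 and -0.05 for Atp5g3. Sdhd had -0.09 (SE 0.07, adjusted p = 0.424).

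**Figure D5:**
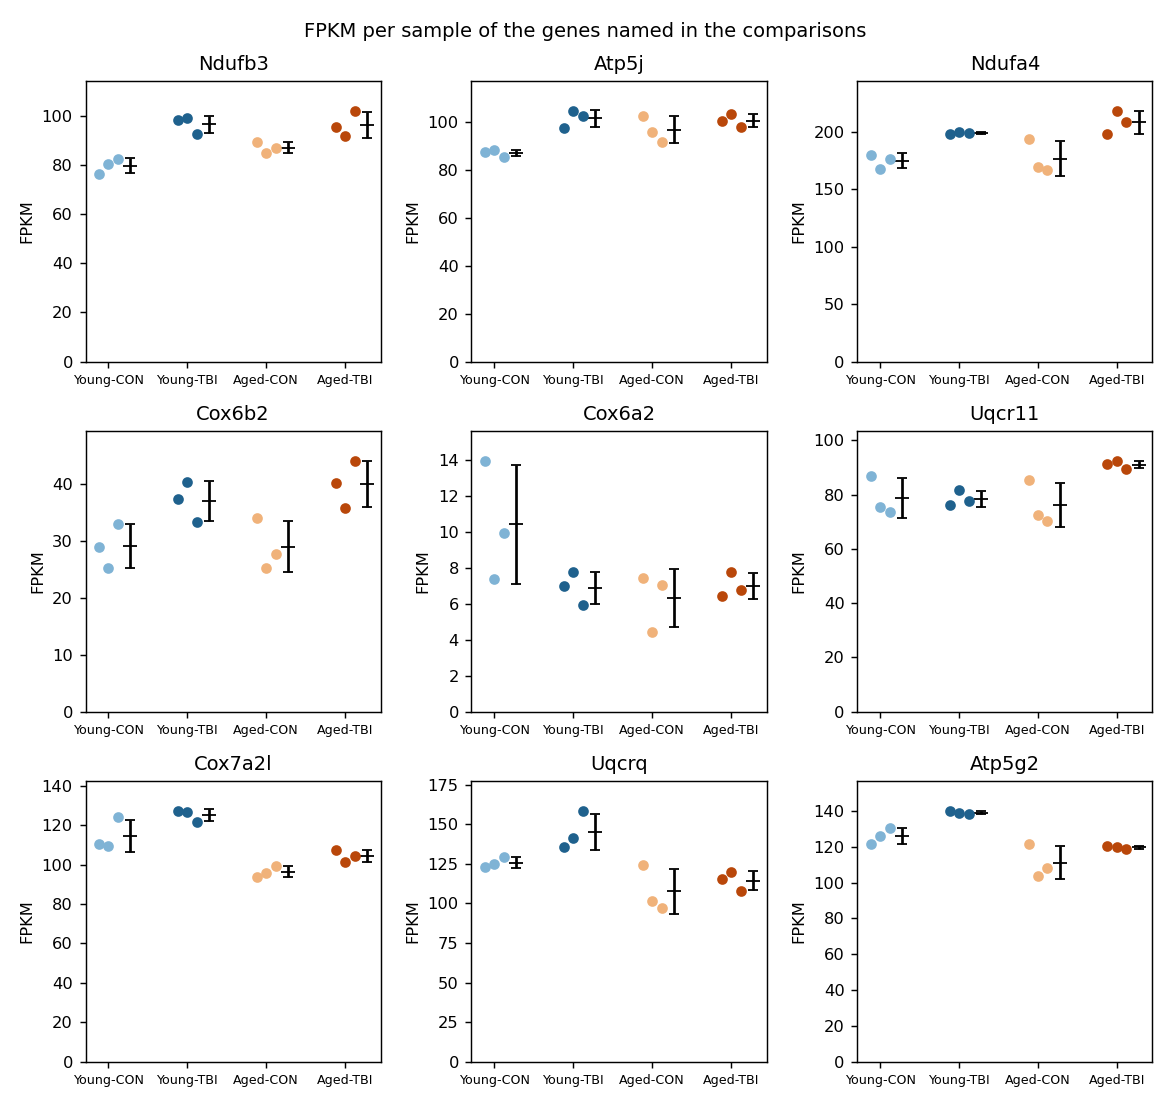
FPKM per sample (points) of 9 genes named in the comparisons, by group, with the mean and SD of 3 samples beside them; all y axes start at 0. Cox7a2l is at 109.5 to 127 FPKM in the 6 young and 93.9 to 107 FPKM in the 6 aged samples, and Ndufb3 is higher in the injured samples at both ages.

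Over all genes 9.9% were called between aged and young injured mice, so 2 of 75 is below the background. Without Aged-CON 1, which enters the shared spread here too, 1 was higher and 4 were lower, with 18.1% of all genes called. By unadjusted p under 0.05 the counts were 1 higher against 6 lower, where 28.6% of all genes passed. The 75 genes split evenly, with 37 above 0 and a median of -0.00, against 38.0% and -0.05 of all genes. In 10 all Aged-TBI samples were higher (13.4% of all genes) and in 11 all were lower (26.6%). Erythroid genes were higher in aged injured mice in 15 of 15, with 3 called and a median of 0.90, and primary granule genes lower in 8 of 8, with 6 called. All 8 B cell genes fell (median -1.25, summed level 254 to 365 FPKM in Young-TBI against 109 to 126 FPKM in Aged-TBI). Of 4 basophil and mast cell genes 3 were called higher (median 0.98, summed level 67.8 to 80.3 FPKM against 136 to 162 FPKM), and of 6 monocyte genes 2 were called lower (median -0.48). Their part in these values was not tested.

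Genes around the complexes were followed as lists. Among 6 subunits or partners that the symbol rule leaves out, none passed in any comparison in limma, with 2 higher in young and 3 higher in aged mice after injury by unadjusted p under 0.05. Cox4i1, the main form of subunit 4 of complex IV, was at 306.5, 292 and 298 FPKM in young controls and at 328, 349.7 and 338 FPKM in young injured mice. The aged values were 329, 278 and 285 FPKM without and 323, 337 and 348 FPKM with injury, where Aged-CON 1 again lay among the injured samples. Its log2 changes after injury were 0.18 at both ages (adjusted p = 0.183 and 0.162). Cytochrome c (Cycs) was at 18.6 to 24.6 FPKM, and Atpif1, the inhibitor of ATP synthase, had a log2 change of 0.51 in aged mice (adjusted p = 0.147).

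Assembly factors did not show the shift above 0 of the subunits after injury in young mice. Of 13 complex I factors 5 were above 0 (median -0.04), of 4 complex II factors 0 (median -0.15), of 6 complex III factors 2 (median -0.03), of 19 complex IV factors 11 (median 0.03) and of 3 complex V factors 2 (median 0.09). In young mice 2 of these factors fell, a share below the 5.15% of all genes called in this comparison. Ndufaf4, an assembly factor of complex I, was at 4.81, 4.50 and 4.62 FPKM in Young-CON and at 3.11, 3.54 and 3.71 FPKM in Young-TBI (-0.34, SE 0.09, limma adjusted p = 0.0471). Sdhaf1, which helps insert iron-sulphur clusters into Sdhb, was at 10.6, 11.7 and 9.79 FPKM and then at 7.71, 7.41 and 8.48 FPKM (-0.40, SE 0.09, adjusted p = 0.0336). Neither pair of groups overlapped. The calls were lost under 15 of 24 alternatives for Ndufaf4 and 13 of 25 for Sdhaf1.

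With age 3 assembly factors fell, 2 in controls and 2 after injury, shares below the 4.98% and 9.9% of all genes called there. Lyrm7, a chaperone of the Rieske protein of complex III, was at 3.07, 3.81 and 5.64 FPKM in Young-CON and at 0.85, 0.875 and 0.836 FPKM in Aged-CON (-1.45, SE 0.22, limma adjusted p = 0.00196). After injury it was at 2.76, 4.62 and 5.92 FPKM in young and 0.545, 0.805 and 0.894 FPKM in aged mice (-1.60, SE 0.22, adjusted p = 0.00209). All 6 aged samples were below all 6 young ones. These calls were kept under all 24 alternatives run for the controls and under 23 of 24 after injury. All aged values were below 1 FPKM, so Lyrm7 met the level filter through the young samples alone. Lyrm7 did not meet the alternative filter of 5 FPKM, which left 24 alternatives. Its partner Uqcrfs1, the Rieske protein itself, had log2 changes with age of -0.07 (adjusted p = 0.75) and -0.04 (adjusted p = 0.806).

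Sdhaf2, which attaches the flavin to Sdha, was at 16.3 FPKM in each Young-CON sample and at 13.8, 12.1 and 13.5 FPKM in Aged-CON (-0.29, SE 0.07, adjusted p = 0.0256). Cox15, an enzyme of heme A synthesis, was at 10.5, 9.61 and 9.60 FPKM in Young-TBI and at 8.55, 7.40 and 8.24 FPKM in Aged-TBI (-0.27, SE 0.07, adjusted p = 0.0314). The call of each was lost under 9 of 25 alternatives. Sco2, a copper chaperone of complex IV, was listed at 0 in all samples.

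Among 13 genes of the tricarboxylic acid cycle, which supplies the electrons, 12 were above 0 after injury at either age, with medians of 0.03 in young and 0.08 in aged mice. None passed after injury in limma, with 0 and 2 higher at an unadjusted p under 0.05. With age the fumarase gene Fh1 fell in controls, from 36.1, 39.5 and 39.6 FPKM in Young-CON to 34.4, 31.3 and 29.4 FPKM in Aged-CON (-0.27, SE 0.07, adjusted p = 0.0472, lost under 16 of 25 alternatives). None of 10 regulators, among them Nrf1, Gabpa, Tfam and Esrra, passed in any comparison in limma, with 1 lower in young mice, and 1 higher and 1 lower in aged mice, after injury by unadjusted p under 0.05. The coactivator genes Ppargc1a and Ppargc1b stayed below the level filter, at most at 0.31 and 0.977 FPKM.

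Other large complexes were set beside the 75 genes. After injury in young mice the median log2 change was 0.07 for 76 genes of the cytosolic ribosome, 0.06 for 34 of the proteasome and 0.03 for 77 of the mitochondrial ribosome, against 0.12 for the OXPHOS genes. In aged mice the medians were 0.12, 0.09, 0.07 and 0.11 in the same order. In this order of lists, 68 of 76, 28 of 34 and 48 of 77 genes were above 0 in young mice, against 68 of 75 OXPHOS genes. In aged mice 74 of 76, 28 of 34 and 55 of 77 were, against 66 of 75. Genes whose injured samples all lay higher were 34 of 76, 9 of 34 and 9 of 77 in young mice, and 3 of 76, 1 of 34 and 8 of 77 in aged mice. Over all genes the shares were 12.9% in young and 9.19% in aged mice, so the mitochondrial ribosome in young mice and the cytosolic ribosome and proteasome in aged mice were below them. Whether the OXPHOS genes differ from these lists was not tested. The only call in these lists was Mrpl10 of the mitochondrial ribosome, lower in aged than young injured mice (-0.22, adjusted p = 0.0497), which was lost under 20 of 25 alternatives.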

How the data were processed

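Per the labels' protocols, TRIzol was used to extract bone marrow RNA, and libraries were made with the SMARTER mRNA-seq kit. The authors deposited FPKM per gene symbol and sample. The submitters' processing notes list the builds GRCm38 and mm10 and the tool R 4.3.3; no source used here gives the aligner, the counter or the use of strand. Steps between low FPKM values gave whole fragments (within 0.05) for 11764 of 11767 tested genes. No replicates agreed within sampling noise (chi-square per degree of freedom 4.49 to 48.31).

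The fit was limma 3.58.1 (R 4.3.3) on log2(FPKM + 1) without rescaling, with 1 mean per group, all 12 samples, a variance trend and two-sided tests, and was tested on simulated data. Folds understate changes of genes near 1 FPKM, and FPKM is relative, so a rise of abundant genes lowers others. P-values were adjusted by Benjamini and Hochberg over all 11767 tested genes, and a call is an adjusted p under 0.05. The members and lists were chosen with earlier results of these data known. Genes given with values are, per comparison and complex, the called members or else the member with the smallest p, plus the highest and lowest levels and isoform partners. A result that this rule names is not reported here. Gene positions and shared 50-base stretches come from GENCODE M21 (GRCm38): 6 members share over 20% with other genes, and 16 overlap another tested gene. Alternatives were other scalings, filters, pseudocounts and models, and leaving out samples.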

Additional observations from a re-analysis of the deposited data

How the results depend on the processing

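No direction of a called gene reversed under any of up to 25 alternatives. For injury in young mice the calls among the 75 genes (1 in the main analysis) numbered 3 with quantile normalization, 4 with median ratio scaling, 3 with no low-value filter, 0 with only the groups compared, 15 with sample weights, 6 with Young-CON 2 and Aged-CON 1 both left out, 15 with the erythroid mean as covariate, and 0 to 8 with 1 sample left out. For injury in aged mice (0) they were 29 with weights, 33 without both samples and 0 to 31 with 1 left out; the median was 0.0087 and 42 genes were above 0 with the covariate. Genes higher without overlap in aged mice (11) were 20 under median ratio scaling, 56 without both samples and 11 to 56 with 1 left out. For age in controls (1 lower) the calls were 1 higher under median ratio scaling, 0 rescaled without dominant genes, with no variance trend and with only the groups compared, 8 with weights, 11 without both samples (median -0.0716), 3 with the covariate, and 0 to 3 with 1 left out. For age after injury (2) they were 4 with quantile normalization, 0 with median ratio scaling, 1 with no filter, 1 with no trend, 5 with only the groups compared, 5 with weights, 7 without both samples, 0 with the covariate (median -0.1145), and 0 to 5 with 1 left out. For the interaction (0) they were 9 with weights, 11 without both samples (median 0.0625) and 0 to 4 with 1 left out; the median was -0.1248 with the covariate and -0.0575 to 0.0671 with 1 left out. The cause of these moves was not tested. The share of all genes called moved with the setting too, as the shares given above without Aged-CON 1 show. These counts are therefore no result about the 75 genes alone. The erythroid mean of Aged-TBI did not overlap that of Aged-CON or Young-TBI. Fits with this covariate cannot tell it apart from injury in aged mice or from age after injury. An interaction with only the groups compared could not be fitted. The counts of genes above 0 or without overlap, and the alternatives on them, were chosen after seeing the data.

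Samples share only a replicate number: deviations of 18 same-numbered pairs correlated from -0.216 to 0.29 (median -0.032). A fit with the replicate block gave 0 calls for injury in young mice (Ndufb3 adjusted p = 0.0513), 0 for age in controls (Cox7a2l adjusted p = 0.0757), and an adjusted p of 0.0407 for Cox7a2l and 0.0629 for Uqcrq after injury.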
